A study of Mus musculus with 13 samples.

Results

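The translation initiation factors (eIFs) and elongation factors (eEFs), with the proteins that bind or modify them directly, were examined in mouse hearts under pressure overload. Genes were taken whose probe symbol began with Eif or Eef followed by a digit, leaving out the Eif2ak kinases, which carry the same prefix, and the Y-linked Eif2s3y. The rule gave 44 genes of the 8336 measured, each read from its brightest probe, and all 44 were detected on all 13 arrays. By role they were 7 genes of eIF2, start-codon selection and subunit joining, 4 of the exchange factor eIF2B, 10 of eIF3, 9 of cap binding and the eIF4F helicase, 3 eIF4E-binding inhibitors, 2 genes for eIF5A and eIF6, 6 for eEF1 and eEF2, and 3 for the eEF2 kinase and the methyltransferases of eEF1A. Eif2s1, Eif4g1 and Eef1a1 were not analysed here.

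All animals were male C57BL/6 mice, aged 8 to 10 weeks. The TUDCA-TAC group (4 hearts) had transverse aortic constriction (TAC), a band on the aortic arch that loads the left ventricle with pressure, and received tauroursodeoxycholic acid (TUDCA), a bile acid used as a chemical chaperone of protein folding, by oral gavage at 300 mg/kg per day. The TUDCA-Sham group (3 hearts) received the same dose after sham surgery, the Veh-TAC group (3 hearts) was banded and received vehicle (water), and the Veh-Sham group (3 hearts) had sham surgery and vehicle. Whole hearts were taken after 1 week, and the total RNA of each was hybridized to its own Illumina MouseRef-8 v2 array.

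In eukaryotic translation, eIF4E binds the cap of an mRNA, and the helicase eIF4A and the scaffold eIF4G complete the eIF4F complex that loads the small ribosomal subunit with the help of eIF3. The subunit carries eIF2 with GTP and the initiator tRNA, scans to the start codon under eIF1 and eIF1A, and releases eIF2 as a GDP complex once eIF5 has triggered hydrolysis. The factor eIF2B reloads eIF2 with GTP and is blocked when the stress kinases phosphorylate eIF2, which is how endoplasmic reticulum stress slows initiation. Elongation then depends on eEF1A, which delivers aminoacyl-tRNA, on the eEF1B exchange complex, and on eEF2, which moves the ribosome and is switched off by the eEF2 kinase. In the heart, protein synthesis rises during hypertrophic growth. The arrays measured mRNA only, and phosphorylation of these factors was not measured here.

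Values are normalized probe intensities on a log2 scale, so that a difference of 1 is a doubling, and levels are compared between hearts for the same probe, never between genes. A gene was called changed at an adjusted p under 0.05 (limma, Benjamini-Hochberg over the 8336 genes). In a whole heart, fewer cells of a type and less RNA per cell cannot be told apart. The number of arrays limits the precision. TUDCA-TAC replicates 3 and 4 stood apart from the other hearts, with scores of -21.97 and -31.51 on the second principal component against -6.29 or higher in the other 11, and the mean level of 56 ribosomal protein genes was 13.35 and 13.30 in them against 13.55 to 13.70 elsewhere. Array background (the 25th percentile of log2 raw intensity) was 7.36 in TUDCA-TAC replicate 4 and 8.03 to 8.08 in the other TUDCA-TAC hearts. It was 8.02 to 8.26 in TUDCA-Sham hearts, 8.24 to 8.28 in Veh-TAC hearts and 8.28 to 8.30 in Veh-Sham hearts. Signal over background, an upper percentile of raw intensity divided by the 25th, was 19.3 in TUDCA-TAC replicate 4 and 6.49 to 8.52 in all other hearts. Of the 8 cardiomyocyte markers, 7 were measured, and no probe used here carried the symbol of the other.

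Pressure overload with vehicle changed few of these genes. In Veh-TAC hearts 4 of 44 were higher than in Veh-Sham hearts, namely the cap-axis genes Eif4ebp1, Eif4e2 and Eif4a1 and the scanning factor gene Eif1a, and 2 were lower, the eIF3 subunit gene Eif3b and the eIF1A-related gene Eif1ad. Over all 8336 genes 12.5% were called higher and 12.5% lower, so the 6 called members (13.6%) stood below the 25% of all genes called in either direction. The median difference of the 44 genes was -0.11 against -0.03 over all genes, and the median size of their differences regardless of sign was 0.19 against 0.27. The values ran between -0.62 (Eef1akmt1, not called) and 0.70 (Eif4e2), with 15 positive and 29 negative. Scaling the arrays to a common median in place of quantile normalization moved the median of all genes by 0.15 on the log2 scale and that of the members to 0.01, and of the calls over all genes it made 79.2% higher, against 50.2% with quantile normalization. At an unadjusted p under 0.05, 5 members were higher and 9 lower (11.4% and 20.5%), against 17.2% and 20.1% of all genes. These counts rest on the brightest probes. Dimmer probes of Eif4e3, Eif2s2, Eef1a2 and Eif2b5, none of them called, were lower with unadjusted p-values of 0.00456 to 0.00811 (limma over all probes). The probe of the called gene Eif1ad had 0.00823 in that fit. The groups of hearts did not overlap for 15 of 44 genes (34.1%), against 43.1% of all genes. The count of lower members moved with single hearts, being 0 without Veh-Sham replicate 3 or Veh-TAC replicate 3, 1 without Veh-TAC replicate 2, 6 without Veh-TAC replicate 1 and 4 without TUDCA-TAC replicate 4. The median was -0.04 without Veh-Sham replicate 2 and -0.07 without Veh-TAC replicate 2.

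With TUDCA the same surgery gave no call. Between TUDCA-TAC and TUDCA-Sham hearts 0 members were higher and 0 lower by limma, against 1.02% and 0.768% of all genes; at an unadjusted p under 0.05, 1 was higher (Eif3b, 2.27% of 44) and 2 were lower (Eif3h and Eif3k, 4.55%), against 7.77% and 8.81% of all genes. The methods' t-test with equal variances gave 0 in each direction after Benjamini-Hochberg adjustment. The values ran between -0.60 (Eif3h) and 0.28 (Eif4ebp2) with a median of 0.02, and the hearts did not overlap for 4 of 44 genes (9.09%) against 15% of all genes. Median scaling moved the median of all genes by 0.12 here, and 87.1% of its calls over all genes were higher against 57.0% with quantile normalization. TUDCA without banding gave 0 calls in both directions between TUDCA-Sham and Veh-Sham hearts, as for all genes (0% higher and 0% lower). There, 0 members passed an unadjusted p under 0.05 in either direction, against 1.37% of all genes higher and 1.08% lower, the methods' t-test also gave 0, and 2 of 44 genes (4.55%) had hearts that did not overlap against 7.38% of all genes. The differences ran between -0.30 (Eef1aknmt) and 0.24 (Eif5).

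Set against each other, the banded groups differed in 7 members. In TUDCA-TAC hearts 3 genes were higher than in Veh-TAC hearts (Eif1ad, Eif3b and Eef1a2) against 8.17% of all genes, and 4 were lower (Eif4ebp1, Eif4e2, Eif3h and Eif3k) against 8.25%. The 7 of 44 (15.9%) stood near the 16.4% of all genes called either way, and the hearts did not overlap for 12 of 44 (27.3%) against 26.2%. At an unadjusted p under 0.05, 7 were higher (15.9%) and 6 lower (13.6%), against 16% and 15.3% of all genes. Both this comparison and the vehicle response contain the Veh-TAC hearts, so opposite signs in them are not separate evidence. The count of higher members was 1 without Veh-TAC replicate 2, and that of lower members was 1, 1 and 0 without Veh-TAC replicates 1, 2 and 3, and 2 without either TUDCA-TAC replicate 3 or 4. The median of 0.07 was 0.12 without Veh-TAC replicate 1. The test of the difference of the responses to TAC, with TUDCA minus with vehicle, called 1 member higher (Eif3b) against 0.852% of all genes and 0 lower against 1.28%. At an unadjusted p under 0.05, 4 were higher and 3 lower (9.09% and 6.82%), against 9.94% and 9.67% of all genes, and the estimates ran between -0.83 (Eif3h) and 0.79 (Eef1aknmt). Under median scaling 10.1% of the calls over all genes in this test were higher, against 39.9% with quantile normalization. Over the 5 comparisons 9 of the 44 genes (20.5%) were called at least once and 35 never were, whereas 29.3% of all genes were called at least once.

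**Figure D1:**
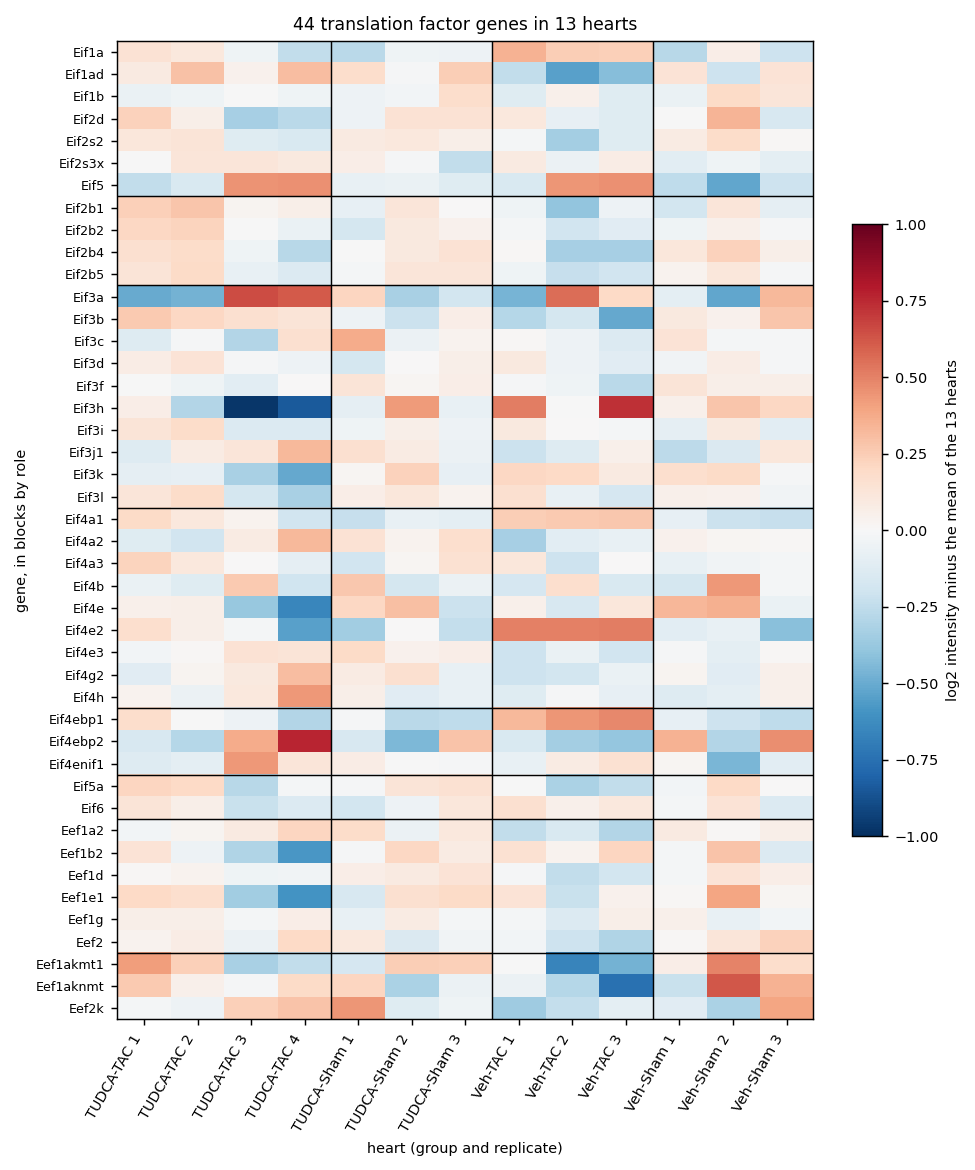
Normalized log2 intensity of the 44 genes (rows, in blocks by role) in the 13 hearts (columns, by group), each row centred on its mean over the hearts and the colours running between -1 and 1. Eif4e2, Eif4ebp1, Eif4a1 and Eif1a are highest in the 3 Veh-TAC hearts, and Eif3h is lowest in TUDCA-TAC replicates 3 and 4 (8.42 and 8.55).

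The largest called differences in banded vehicle hearts were those of Eif4e2 and Eif4ebp1, genes that act on the cap. Of the 9 genes of cap binding and the helicase 2 were called in Veh-TAC against Veh-Sham hearts (22.2%). Of the 3 eIF4E-binding inhibitors 1 was called (33.3%), and of all genes 25%. Eif4ebp1 encodes 4E-BP1, the inhibitor that keeps eIF4E from eIF4G until mTORC1 phosphorylates it. Its level was 13.02, 12.84, 12.79 and 12.54 in TUDCA-TAC hearts, 12.83, 12.57 and 12.59 in TUDCA-Sham hearts, 13.16, 13.28 and 13.32 in Veh-TAC hearts, and 12.75, 12.63 and 12.59 in Veh-Sham hearts. All 3 Veh-TAC hearts lay above the other 10. The difference between Veh-TAC and Veh-Sham was 0.60 ± 0.13 (SE), a 1.51-fold rise with an adjusted p of 0.00529, and it was called under 27 of the 28 alternatives run (adjusted p at most 0.0297 in those, where one was computed). The exception was a block on the number in the sample titles, in which no member was called in any comparison. TUDCA-TAC hearts were lower than Veh-TAC hearts by a log2 difference of -0.46 ± 0.12 (adjusted p = 0.0233). That call was lost without Veh-TAC replicate 2 (-0.44, adjusted p = 0.0874) or replicate 3 (-0.42, adjusted p = 0.0843) and without TUDCA-TAC replicates 3 and 4 together (-0.33, adjusted p = 0.0977), and with the array background as a term the difference was -0.28 (adjusted p = 0.273). TUDCA-TAC against TUDCA-Sham gave 0.13 (95% interval -0.12 to 0.39), and the difference of responses gave -0.46 ± 0.17 (adjusted p = 0.167), which did not pass.

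Eif4e2 encodes 4EHP, a cap-binding relative of eIF4E that does not bind eIF4G and represses the mRNAs it occupies. It measured 10.64, 10.53, 10.45 and 9.93 in TUDCA-TAC hearts, 10.13, 10.48 and 10.24 in TUDCA-Sham hearts, 10.98, 10.97 and 10.99 in Veh-TAC hearts, and 10.37, 10.40 and 10.06 in Veh-Sham hearts. The 3 Veh-TAC hearts were nearly identical and all above the other 10. The rise in Veh-TAC over Veh-Sham was 0.70 ± 0.17 (1.63-fold, adjusted p = 0.0113), the largest among the 44 genes, and it was called under 27 of 28 alternatives (adjusted p at most 0.0497 in those), the exception being the block on the title number. A second probe of the gene gave 0.63. TUDCA-TAC hearts were lower than Veh-TAC hearts, at -0.59 ± 0.16 (adjusted p = 0.0279). Leaving out Veh-TAC replicate 1, 2 or 3 took the adjusted p to 0.0562, 0.0902 and 0.0829, with the difference still -0.59 each time. With the array background as a term it was -0.28 (adjusted p = 0.338), with the mean of the gene's probes -0.44 (adjusted p = 0.0712), and without TUDCA-TAC replicates 3 and 4 together -0.39 (adjusted p = 0.0855). The difference of responses, -0.60 ± 0.24, had an adjusted p of 0.186.

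Eif4a1, the gene of the main eIF4A helicase, measured 13.68, 13.60, 13.53 and 13.30 in TUDCA-TAC hearts, 13.26, 13.42 and 13.39 in TUDCA-Sham hearts, 13.74, 13.75 and 13.76 in Veh-TAC hearts, and 13.41, 13.28 and 13.26 in Veh-Sham hearts. Again the Veh-TAC hearts were the 3 highest. The rise in Veh-TAC over Veh-Sham was 0.43 ± 0.11 (1.35-fold, adjusted p = 0.0125), and a second, dimmer probe gave 0.45. It was called in 26 of 28 alternatives, the exceptions being the methods' 1.5-fold limit and the block on the title number. TUDCA-TAC hearts had a difference of -0.22 ± 0.10 from Veh-TAC hearts, without overlap but with an adjusted p of 0.158. Its paralogue Eif4a2 had a difference of -0.19 in Veh-TAC against Veh-Sham hearts (adjusted p = 0.319) and Eif4a3, of the exon junction complex, one of 0.01.

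The other cap-axis genes, read from their brightest probes, did not pass the test in any comparison. Eif4e, the cap-binding subunit itself, was 9.78, 9.79, 9.35 and 9.08 in TUDCA-TAC hearts, 9.94, 10.03 and 9.51 in TUDCA-Sham hearts, 9.78, 9.57 and 9.85 in Veh-TAC hearts, and 10.07, 10.08 and 9.67 in Veh-Sham hearts, with overlap between all groups. Its difference between Veh-TAC and Veh-Sham was -0.20 (95% interval -0.65 to 0.24), and it lay between -0.34 and -0.12 when single hearts were left out. Eif4ebp2, a second 4E-BP gene, measured 9.05, 8.93, 9.59 and 9.98 in TUDCA-TAC hearts, 9.06, 8.77 and 9.50 in TUDCA-Sham hearts, 9.06, 8.88 and 8.83 in Veh-TAC hearts, and 9.56, 8.92 and 9.68 in Veh-Sham hearts. Its estimate of -0.47 in Veh-TAC against Veh-Sham ran opposite in sign to that of Eif4ebp1, with an interval of -1.08 to 0.15, an adjusted p of 0.255, and values of -0.70 to -0.32 when single hearts were left out. Eif4enif1, the gene of the 4E transporter protein, had 0.24 (adjusted p = 0.308). In the vehicle response 6 of the 9 genes of cap binding and the helicase were negative, between -0.20 and -0.01 (4 of 9 under median scaling), and these included Eif4g2, Eif4b, Eif4h and Eif4e3. Dimmer probes gave -0.32 and -0.43 for Eif4e3, -0.27 for Eif4a2 and -0.01 for Eif4g2. In a limma fit over all probes their unadjusted p-values were 0.00456, 0.112, 0.0613 and 0.967 in that order. The first lay below the 0.00823 of the called gene Eif1ad in the same fit.

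**Figure D2:**
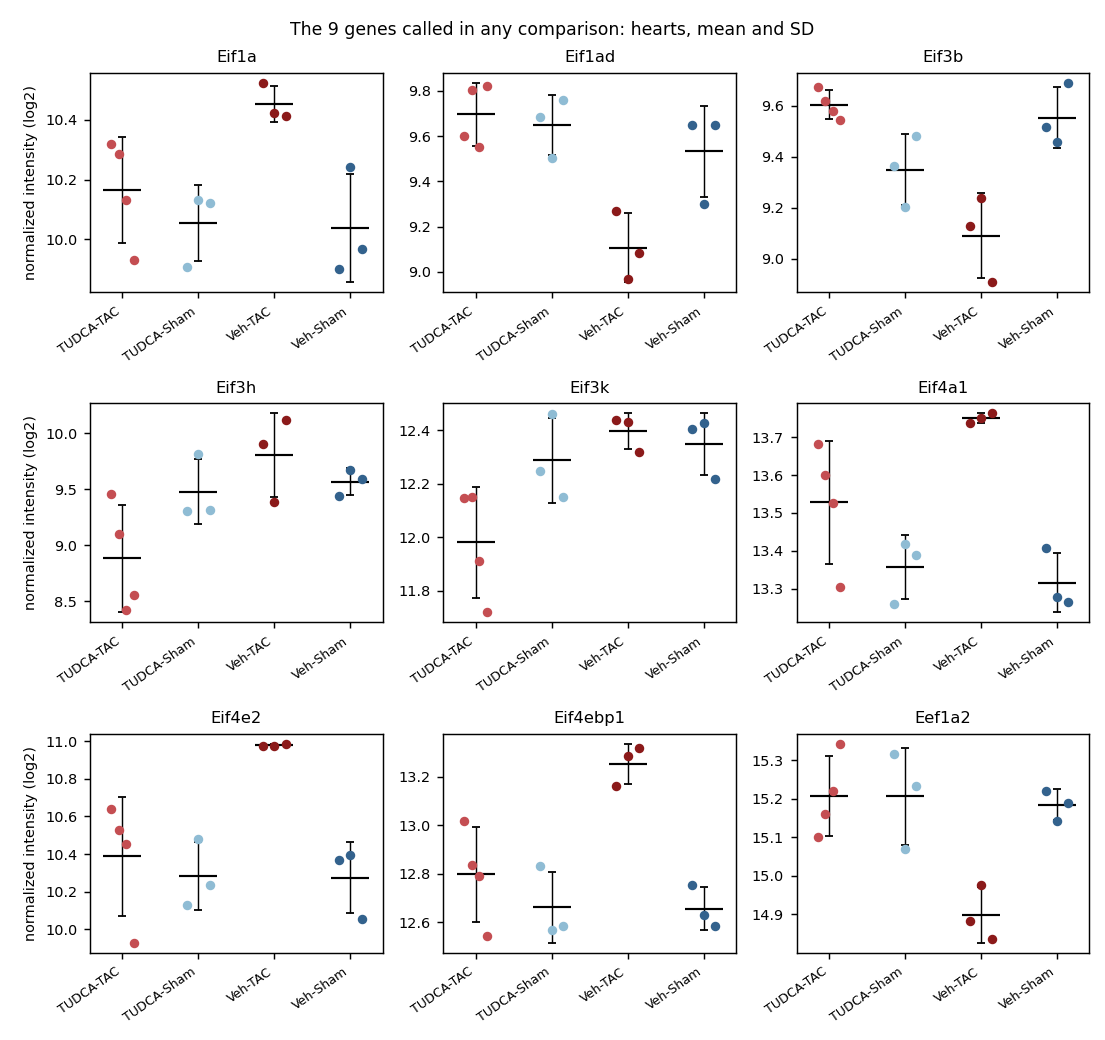
Normalized log2 intensity in each heart (points) for the 9 genes called in any comparison, by group, with the group mean (long bar) and SD (whiskers), each panel on its own scale that does not start at 0. The Veh-TAC hearts are the 3 highest for Eif4ebp1, Eif4e2, Eif4a1 and Eif1a and the 3 lowest for Eif1ad and Eef1a2.

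Promoter windows are shown for members called in the vehicle response whose sequence before the annotated start overlapped no other gene. The letters can thus be read beside their opposite directions in banded vehicle hearts (Eif4a1 and Eif4e2 higher, Eif3b lower). No window was at hand for Eif4ebp1, that of Eif1ad overlapped another gene, and Eif1a is not shown here. Each run is the 250 bases before the start (RefSeq, GRCm38.p6, 5′ to 3′ on the strand of the gene), at chr11:69672424-69672673 on the minus strand for Eif4a1, chr1:87213661-87213910 on the plus strand for Eif4e2 and chr5:140419055-140419304 on the plus strand for Eif3b. Where a gene had several annotated starts, the one farthest upstream was used. Capitals mark an E-box, CACGTG, whose last base lay 184 bases before the Eif4a1 start, and the runs of Eif4e2 and Eif3b held none of the motifs searched.
Eif4a1: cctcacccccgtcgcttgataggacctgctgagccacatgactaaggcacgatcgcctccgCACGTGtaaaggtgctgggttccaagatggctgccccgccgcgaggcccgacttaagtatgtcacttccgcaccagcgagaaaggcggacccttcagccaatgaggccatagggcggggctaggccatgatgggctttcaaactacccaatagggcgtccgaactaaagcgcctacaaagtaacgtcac
Eif4e2: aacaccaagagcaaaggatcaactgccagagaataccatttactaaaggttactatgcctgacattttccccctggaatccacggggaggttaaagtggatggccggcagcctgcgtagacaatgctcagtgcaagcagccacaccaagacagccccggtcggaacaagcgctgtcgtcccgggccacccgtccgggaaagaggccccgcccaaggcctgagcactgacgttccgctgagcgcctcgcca
Eif3b: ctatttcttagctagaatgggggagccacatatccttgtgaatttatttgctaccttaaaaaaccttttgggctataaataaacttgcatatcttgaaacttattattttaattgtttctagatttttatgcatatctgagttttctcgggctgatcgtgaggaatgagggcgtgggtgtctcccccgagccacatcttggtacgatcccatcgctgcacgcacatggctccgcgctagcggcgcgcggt
The Eif4a1 and Eif4e2 windows were both 58.8% G and C and that of Eif3b was 44.8%.

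Windows of 250 bases before to 50 after the start were at hand for 34 of the 44 genes (47 windows) among 32851 windows in all. The E-box CACGTG, bound by MYC and related factors, was in 13 of the 47 windows (27.7%) against 7.15% of all windows. The ETS core CCGGAAG was in 15 (31.9%) against 8.86%. The 12 genes with it were Eef1b2, Eif1ad, Eif1b, Eif2b2, Eif2b4, Eif3c, Eif3d, Eif3l, Eif4e2, Eif4ebp2, Eif4enif1 and Eif5a. Of these, Eif1ad and Eif4e2 were called in the vehicle response. The Eif4e2 match lay outside the 250 bases shown above. The 11 genes with an E-box were Eef1aknmt, Eef2, Eef2k, Eif1b, Eif3a, Eif3f, Eif3k, Eif4a1, Eif4e, Eif4h and Eif5a, of which Eif4a1 alone was called in the vehicle response. The ATF4 site TGATGCAA was in 0 windows against 0.895% of all, and the cyclic AMP response element TGACGTCA was in 1 (Eef2) against 1.79%. All motifs were searched on both strands, and base composition was not matched between the members and the other windows. A start with C and 4 more pyrimidines, as in mRNAs with a terminal oligopyrimidine tract, was annotated for Eif2s3x and Eif3f, 2 of 47 windows (4.26%) against 2.51%. These matches are letters in a window and were not tested as binding sites.

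Among the 7 genes of eIF2, start-codon selection and subunit joining, 1 was called higher and 1 lower in Veh-TAC hearts (28.6%, against 25% of all genes). Eif1a encodes eIF1A, which keeps the small subunit open for scanning. It measured 10.32, 10.28, 10.13 and 9.93 in TUDCA-TAC hearts, 9.91, 10.13 and 10.12 in TUDCA-Sham hearts, 10.52, 10.42 and 10.41 in Veh-TAC hearts, and 9.90, 10.24 and 9.97 in Veh-Sham hearts. The Veh-TAC hearts were the 3 highest. The rise over Veh-Sham was 0.41 ± 0.13 (1.33-fold, adjusted p = 0.0351), and against Veh-TAC the TUDCA-TAC hearts had -0.29 ± 0.12 (adjusted p = 0.129). The call in the vehicle response was lost without Veh-Sham replicate 1 (0.35, adjusted p = 0.123) or 3 (0.38, adjusted p = 0.106), or without Veh-TAC replicate 1, 2 or 3 (0.38, 0.43 and 0.43).

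Eif1ad, which carries an eIF1A domain, went the other way. It was 9.60, 9.81, 9.55 and 9.82 in TUDCA-TAC hearts, 9.69, 9.50 and 9.76 in TUDCA-Sham hearts, 9.27, 8.97 and 9.09 in Veh-TAC hearts, and 9.65, 9.30 and 9.65 in Veh-Sham hearts. The Veh-TAC hearts were the 3 lowest, although the highest of them (9.27) lay close to the lowest Veh-Sham heart (9.30). The difference was -0.43 ± 0.13 in Veh-TAC against Veh-Sham (adjusted p = 0.0356) and 0.59 ± 0.13 in TUDCA-TAC against Veh-TAC (1.5-fold, adjusted p = 0.0105). The first was no longer called without Veh-Sham replicate 1 or 3 (-0.37 in both) or Veh-TAC replicate 2 or 3 (-0.36 and -0.42), and the second without Veh-TAC replicate 2 (0.52, adjusted p = 0.0585) or with the array background as a term (0.48, adjusted p = 0.133). Scaling the arrays to a common median in place of quantile normalization gave -0.23 for the first (adjusted p = 0.444) and 0.60 for the second (adjusted p = 0.0516). The difference of responses, 0.47 ± 0.18, had an adjusted p of 0.177.

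Eif5, the GTPase activator of eIF2, varied within the banded groups. It measured 12.88, 12.97, 13.57 and 13.58 in TUDCA-TAC hearts, 13.05, 13.05 and 12.9998 in TUDCA-Sham hearts, 12.97, 13.56 and 13.58 in Veh-TAC hearts, and 12.87, 12.60 and 12.91 in Veh-Sham hearts. TUDCA-TAC replicates 3 and 4 and Veh-TAC replicates 2 and 3 thus shared a high level that no sham heart reached. The difference between Veh-TAC and Veh-Sham, 0.58 ± 0.21, did not pass (adjusted p = 0.0682). It was 0.78 without Veh-TAC replicate 1 (adjusted p = 0.0195), and the other probes of the gene gave 0.62 and 0.45. Eif3a, the largest eIF3 subunit, varied more than Eif5 in every group (SD 0.65 against 0.38 in TUDCA-TAC hearts, 0.28 against 0.03 in TUDCA-Sham hearts, 0.52 against 0.35 in Veh-TAC hearts and 0.42 against 0.17 in Veh-Sham hearts), with 10.09, 10.12, 11.25 and 11.21 in TUDCA-TAC hearts, 10.81, 10.28 and 10.41 in TUDCA-Sham hearts, 10.14, 11.16 and 10.79 in Veh-TAC hearts, and 10.50, 10.08 and 10.92 in Veh-Sham hearts. Its dimmer probe, detected on 11 arrays, differed in sign in the vehicle response (-0.15 against 0.20). The remaining genes of this role, the eIF2 subunit genes Eif2s2 and Eif2s3x, the recycling factor gene Eif2d and Eif1b, lay between -0.25 and 0.11 in the vehicle response and none was called in any comparison. A second, dimmer probe gave -0.57 for Eif2s2 and -0.08 for Eif2d (unadjusted p of 0.00633 and 0.629, limma over all probes).

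Read from the brightest probes, no gene of the exchange factor eIF2B, on which the integrated stress response converges, was called in any comparison. Eif2b5, its catalytic subunit, was 12.31, 12.37, 12.11 and 12.04 in TUDCA-TAC hearts, 12.16, 12.30 and 12.30 in TUDCA-Sham hearts, 12.14, 11.95 and 11.99 in Veh-TAC hearts, and 12.22, 12.29 and 12.17 in Veh-Sham hearts. The 3 Veh-TAC hearts lay below the 3 Veh-Sham hearts by -0.20 ± 0.11, which did not pass (adjusted p = 0.214). Its dimmer probes gave -0.19 and -0.47, with unadjusted p-values of 0.176 and 0.00811 in a limma fit over all probes. The second of these was below the 0.00823 of the called gene Eif1ad in the same fit, so the lack of a call depended on the probe. All 4 measured subunit genes (Eif2b1, Eif2b2, Eif2b4 and Eif2b5) were negative in the vehicle response, between -0.35 and -0.11, but 2 of them were positive when arrays were scaled to a common median. All 4 were positive in TUDCA-TAC against Veh-TAC, between 0.18 and 0.31, also under median scaling. For Eif2b1 these signs depended on the probe, since a second probe gave 0.13 in the vehicle response and -0.02 in TUDCA-TAC against Veh-TAC, where the brighter one gave -0.11 and 0.31. The smallest adjusted p in those comparisons was 0.0874 (Eif2b4, Veh-TAC against Veh-Sham).

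The 10 eIF3 genes did not move as a unit. In the vehicle response 5 were positive and 5 negative, with a median of -0.02 (6 and 4, with a median of 0.08, under median scaling). Of the 10, 1 was called (10%, against 25% of all genes). Eif3b, the scaffold subunit that holds the eIF3 core together, measured 9.68, 9.62, 9.58 and 9.54 in TUDCA-TAC hearts, 9.36, 9.20 and 9.48 in TUDCA-Sham hearts, 9.13, 9.24 and 8.91 in Veh-TAC hearts, and 9.52, 9.46 and 9.69 in Veh-Sham hearts. Veh-TAC hearts lay below Veh-Sham hearts, and TUDCA-TAC hearts above TUDCA-Sham hearts, without overlap in either pair. The difference was -0.46 ± 0.12 in Veh-TAC against Veh-Sham (adjusted p = 0.0122), 0.25 ± 0.11 in TUDCA-TAC against TUDCA-Sham (adjusted p = 0.259) and 0.51 ± 0.11 in TUDCA-TAC against Veh-TAC (adjusted p = 0.00985). The difference of responses was 0.72 ± 0.16 (95% interval 0.38 to 1.06, adjusted p = 0.0447).

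That last call was narrow. It was lost in 12 of the 13 fits that left out 1 heart, the exception being Veh-TAC replicate 1, with the Eif3b difference between 0.63 and 0.79 throughout. The vehicle response of Eif3b was lost without Veh-Sham replicate 3 (-0.40, adjusted p = 0.0548) or Veh-TAC replicate 3 (-0.37, adjusted p = 0.0535), and median scaling gave -0.27 (adjusted p = 0.258). The TUDCA-TAC against Veh-TAC call stayed in all 13 fits that left out 1 heart, with differences of 0.42 to 0.59, but was lost with the array background as a term (0.52, adjusted p = 0.0809) and with the methods' t-test after Benjamini-Hochberg (adjusted p = 0.0838).

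Eif3h and Eif3k, peripheral eIF3 subunits, were lower in TUDCA-TAC than in Veh-TAC hearts. With Eif3b, 3 of the 10 eIF3 genes were called in that comparison (30%, against 16.4% of all genes). Eif3h was 9.45, 9.10, 8.42 and 8.55 in TUDCA-TAC hearts, 9.30, 9.82 and 9.32 in TUDCA-Sham hearts, 9.90, 9.39 and 10.12 in Veh-TAC hearts, and 9.44, 9.67 and 9.60 in Veh-Sham hearts. TUDCA-TAC replicates 3 and 4 were by far the lowest, replicate 2 lay just below every heart of the other groups, and replicate 1 overlapped the Veh-TAC group. The difference of -0.92 ± 0.25 (adjusted p = 0.0261) was the largest of any member, and without those 2 hearts it was -0.53 (adjusted p = 0.149). It was also lost without TUDCA-TAC replicate 3 (-0.77) or 4 (-0.81), or Veh-TAC replicate 1 (-0.87) or 3 (-0.76), and with the array background as a term (-0.69, adjusted p = 0.255). Against TUDCA-Sham the estimate was -0.60 ± 0.25 (adjusted p = 0.249).

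Eif3k measured 12.15, 12.15, 11.91 and 11.72 in TUDCA-TAC hearts, 12.25, 12.46 and 12.15 in TUDCA-Sham hearts, 12.44, 12.43 and 12.32 in Veh-TAC hearts, and 12.40, 12.43 and 12.22 in Veh-Sham hearts. Here the TUDCA-TAC and Veh-TAC hearts did not overlap. The difference was -0.42 ± 0.12 (adjusted p = 0.0400), and it was -0.25 without TUDCA-TAC replicates 3 and 4 (adjusted p = 0.185). The call was also lost without Veh-Sham replicate 1 (-0.42, adjusted p = 0.0543), Veh-TAC replicate 1 (-0.39), 2 (-0.40) or 3 (-0.45), TUDCA-Sham replicate 1 (-0.42, adjusted p = 0.0529), or TUDCA-TAC replicate 3 (-0.39) or 4 (-0.33). With the array background as a term the difference was -0.22 (adjusted p = 0.407), and with array quality weights -0.28 (adjusted p = 0.0822). Eef1b2, the exchange subunit of eEF1B, was low in the same hearts, with 13.74, 13.55, 13.30 and 13.02 in TUDCA-TAC hearts against 13.64 to 13.82 in Veh-TAC hearts, and its difference of -0.33 did not pass (adjusted p = 0.173). The other 7 eIF3 genes (Eif3a, Eif3c, Eif3d, Eif3f, Eif3i, Eif3j1 and Eif3l) were called in no comparison.

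**Figure D3:**
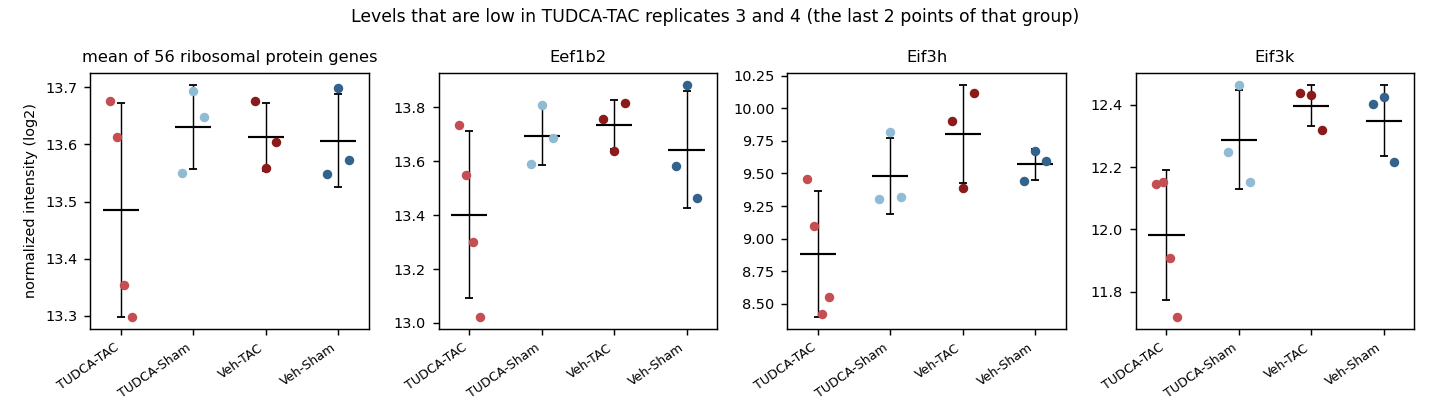
Mean normalized log2 intensity of 56 cytosolic ribosomal protein genes and the level of Eef1b2, Eif3h and Eif3k in each heart (points, in replicate order), by group, with the group mean (long bar) and SD (whiskers) on axes that do not start at 0. TUDCA-TAC replicates 3 and 4 are the lowest hearts in every panel (ribosomal mean 13.35 and 13.30), the panels having been chosen for this.

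The ribosomal protein genes, a list added after the data were seen, were low in the same hearts. Of the 56 genes, 1 was called higher and 7 lower in TUDCA-TAC against Veh-TAC hearts (14.3% in all, against 16.4% of all genes), with 44 negative and a median of -0.12 (36 negative and a median of -0.08 under median scaling, 30 and -0.01 with array quality weights). In Veh-TAC against Veh-Sham hearts 1 was higher and 1 lower (3.57%, against 25% of all genes), with a median of 0.03. The genes called in Veh-TAC against Veh-Sham hearts were Rpl3 (0.48, adjusted p = 0.00590) and its muscle-specific paralogue Rpl3l (-1.23, adjusted p = 0.000159). Among the members, Eef1e1, Eif2d, Eif3i, Eif3l and Eif4e were likewise lowest of all hearts in TUDCA-TAC replicates 3 and 4. Eif3a and Eif4h were highest of all hearts in them. The part of these hearts' general shift in the Eif3h, Eif3k and Eef1b2 values was not tested.

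**Figure D4:**
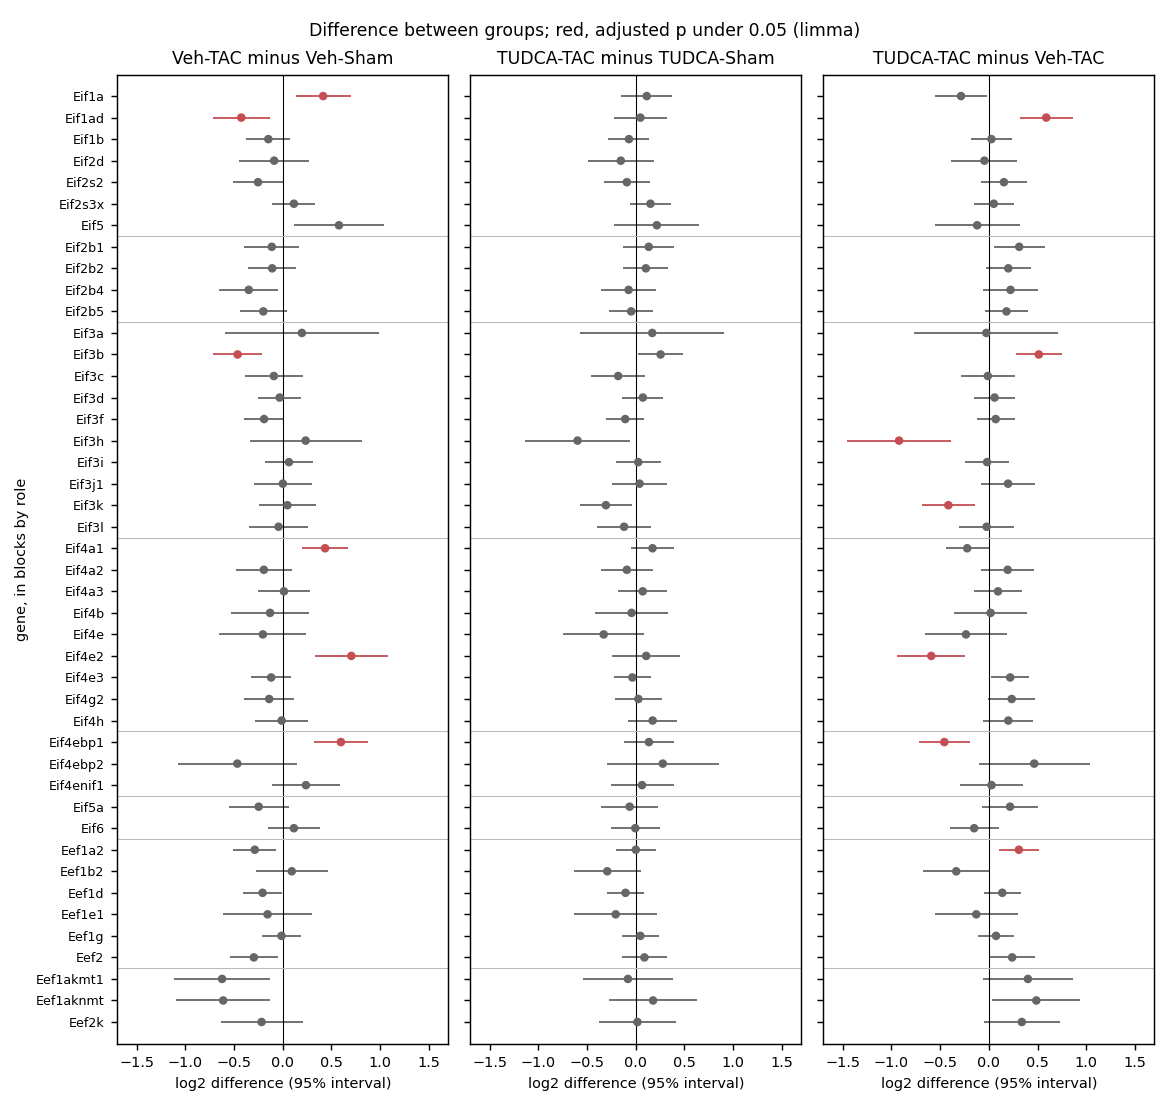
Log2 difference (points) with its 95% interval (lines) for the 44 genes in blocks by role, for Veh-TAC minus Veh-Sham, TUDCA-TAC minus TUDCA-Sham and TUDCA-TAC minus Veh-TAC, with called genes in red. The first panel holds 6 red genes, the second 0 and the third 7.

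The genes of eIF5A, which helps ribosomes over difficult peptide bonds, and eIF6, which keeps the large subunit from joining early, were called in no comparison. Eif5a was 11.82, 11.81, 11.32 and 11.58 in TUDCA-TAC hearts, 11.60, 11.73 and 11.76 in TUDCA-Sham hearts, 11.60, 11.29 and 11.36 in Veh-TAC hearts, and 11.58, 11.80 and 11.61 in Veh-Sham hearts, and its vehicle response was -0.25 (95% interval -0.56 to 0.06). Eif6 was 11.71, 11.64, 11.36 and 11.44 in TUDCA-TAC hearts, 11.40, 11.53 and 11.70 in TUDCA-Sham hearts, 11.74, 11.63 and 11.69 in Veh-TAC hearts, and 11.56, 11.72 and 11.44 in Veh-Sham hearts, with a vehicle response of 0.11 (95% interval -0.16 to 0.38) that lay between 0.05 and 0.19 when single hearts were left out.

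Among the elongation factors, Eef1a2, the eEF1A form of adult heart and skeletal muscle, was higher in TUDCA-TAC than in Veh-TAC hearts. It was 15.10, 15.16, 15.22 and 15.34 in TUDCA-TAC hearts, 15.32, 15.07 and 15.23 in TUDCA-Sham hearts, 14.88, 14.98 and 14.83 in Veh-TAC hearts, and 15.22, 15.14 and 15.19 in Veh-Sham hearts. The Veh-TAC hearts were the 3 lowest of the 13. The difference between TUDCA-TAC and Veh-TAC was 0.31 ± 0.09 (1.24-fold, adjusted p = 0.0441), and that between Veh-TAC and Veh-Sham was -0.29 ± 0.10 (adjusted p = 0.0563), just outside the threshold. All 3 of its probes were negative in the vehicle response (-0.29, -0.20 and -0.59). The last of these, the dimmest, had an unadjusted p of 0.00757 (limma over all probes).

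Both Eef1a2 values sat at the threshold. The TUDCA-TAC against Veh-TAC call was lost when any 1 of 10 hearts was left out, namely Veh-Sham replicate 1, 2 or 3 (0.31 each), Veh-TAC replicate 1, 2 or 3 (0.30, 0.35 and 0.28), TUDCA-Sham replicate 3 (0.31) or TUDCA-TAC replicate 2, 3 or 4 (0.32, 0.30 and 0.26). With the array background as a term the difference was 0.21 (adjusted p = 0.336). The vehicle response of Eef1a2 was called under 10 of 28 alternatives, among them without TUDCA-TAC replicate 4 (-0.29, adjusted p = 0.0411), with adjusted p-values of 0.0174 to 0.514 over all of them.

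Eef2, the translocase gene, was 9.72, 9.77, 9.63 and 9.89 in TUDCA-TAC hearts, 9.80, 9.55 and 9.65 in TUDCA-Sham hearts, 9.67, 9.48 and 9.39 in Veh-TAC hearts, and 9.70, 9.81 and 9.92 in Veh-Sham hearts. The Veh-TAC hearts lay below the Veh-Sham hearts without overlap, by -0.30 ± 0.11, which did not pass (adjusted p = 0.0769). It was -0.37 without Veh-TAC replicate 1 (adjusted p = 0.0436). The eEF1B subunit genes Eef1g and Eef1d and the synthetase-complex gene Eef1e1 had vehicle responses of -0.01, -0.21 and -0.16, and none was called in any comparison. Over the 6 elongation factor genes 5 were negative in the vehicle response (4 under median scaling), with a median of -0.18.

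Among the regulators of elongation, neither eEF1A methyltransferase gene was called in any comparison. Eef1akmt1, whose human counterpart methylates a lysine of eEF1A, was 12.16, 11.98, 11.42 and 11.49 in TUDCA-TAC hearts, 11.57, 11.99 and 11.98 in TUDCA-Sham hearts, 11.74, 11.09 and 11.27 in Veh-TAC hearts, and 11.81, 12.24 and 11.92 in Veh-Sham hearts. Its vehicle response was -0.62 ± 0.23 (adjusted p = 0.0638), and it was -0.81 without Veh-TAC replicate 1 (adjusted p = 0.0258) and passed without TUDCA-TAC replicate 1 (adjusted p = 0.0486). Eef1aknmt, whose human counterpart methylates the start and a lysine of eEF1A, measured 8.03, 7.82, 7.75 and 7.96 in TUDCA-TAC hearts, 7.98, 7.45 and 7.71 in TUDCA-Sham hearts, 7.70, 7.48 and 7.02 in Veh-TAC hearts, and 7.55, 8.38 and 8.11 in Veh-Sham hearts. The vehicle groups overlapped through Veh-Sham replicate 1, and the difference of -0.61 ± 0.22 had an adjusted p of 0.0634 (-0.85 without Veh-Sham replicate 1, adjusted p = 0.0178, and -0.76 without Veh-TAC replicate 1, adjusted p = 0.0379). A second, dimmer Eef1aknmt probe, detected on 12 arrays, gave 0.00 (-0.00126), and the authors' normalized table gave -0.27 for the first.

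Eef2k, the kinase that switches eEF2 off, was 7.55, 7.52, 7.81 and 7.85 in TUDCA-TAC hearts, 8.01, 7.45 and 7.53 in TUDCA-Sham hearts, 7.22, 7.34 and 7.48 in Veh-TAC hearts, and 7.46, 7.26 and 7.97 in Veh-Sham hearts. The groups overlapped, except that every TUDCA-TAC heart lay above every Veh-TAC heart (0.34 ± 0.18, adjusted p = 0.222). Its vehicle response of -0.22 lay between -0.37 and -0.01 when single hearts were left out, and was 0.02 under median scaling.

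The other genes of translation control, on lists written with earlier results of these data known, are given by their counts. Of each list 7.69% to 18.2% were called in Veh-TAC against Veh-Sham hearts, below the 25% of all genes. Of 10 measured eIF2 kinase and phosphatase genes, 1 was higher in Veh-TAC than in Veh-Sham hearts and 0 lower. That gene was Ppp1r15a, whose product GADD34 directs the dephosphorylation of eIF2, at 1.05 ± 0.24 (adjusted p = 0.00753). Of 13 genes of mTORC1 and the eIF4E kinases, 1 was higher (Mknk1, an eIF4E kinase, 0.33, adjusted p = 0.0373) and 0 lower, although the Mknk1 call was lost without any 1 of Veh-Sham replicates 1, 2 and 3, Veh-TAC replicates 2 and 3, or TUDCA-Sham replicates 2 and 3 (0.26 to 0.35). Of 11 genes of termination, recycling and poly(A) binding, 2 were higher and 0 lower, the poly(A)-binding protein gene Pabpc1 (0.68 ± 0.14, adjusted p = 0.00366) and the release factor gene Gspt1 (0.31, adjusted p = 0.0261, lost without Veh-Sham replicate 1 or 2 or Veh-TAC replicate 2 or 3, at 0.25 to 0.32). Pabpc1 was lower in TUDCA-TAC than in Veh-TAC hearts (-0.81, adjusted p = 0.00283).

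Of 18 cytosolic tRNA synthetase genes 0 were higher in Veh-TAC hearts than in Veh-Sham hearts and 3 lower (16.7%, against 25% of all genes). In TUDCA-TAC against Veh-TAC hearts 3 of the 18 were higher and 0 lower (16.7%, against 16.4% of all genes). In the vehicle response 16 of the synthetase genes were negative, against 8 under median scaling. The lower genes with the smallest p were Qars (-0.42, adjusted p = 0.00934) and Mars1 (-0.41, adjusted p = 0.0209), and neither was called under median scaling (-0.28 and -0.25). The Mars1 call was also lost without Veh-Sham replicate 1 or 3 (-0.38 and -0.41) or Veh-TAC replicate 2 or 3 (-0.37 and -0.35). All 9 mitochondrial translation factor genes were negative in the vehicle response, with a median of -0.29 (7 negative and a median of -0.09 under median scaling), and 1 of them, Tsfm, the mitochondrial exchange factor gene, was called (-0.38, adjusted p = 0.0299). That call was lost under median scaling (-0.21) and without Veh-Sham replicate 2 or 3 (-0.32 and -0.39) or Veh-TAC replicate 2 or 3 (-0.30 and -0.35). In none of these lists was the share of calls tested against other genes.

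Marker lists of other cell types differed in how they moved with the banding. In Veh-TAC against Veh-Sham hearts 5 of 7 fibroblast markers and 5 of 7 macrophage markers were higher and 0 lower, with medians of 1.27 and 0.67. In TUDCA-TAC against TUDCA-Sham hearts 1 of 7 and 0 of 7 were higher, with medians of 0.37 and 0.13. Over all genes 25% were called in the first comparison and 1.79% in the second. The mean of the 7 measured of 8 fibroblast markers was 11.30 to 11.39 in TUDCA-TAC hearts, 10.42 to 10.95 in TUDCA-Sham hearts, 11.90 to 12.39 in Veh-TAC hearts and 10.52 to 10.82 in Veh-Sham hearts. The mean of the 7 measured of 10 macrophage markers was 10.15 to 10.45 in TUDCA-TAC hearts, 10.10 to 10.45 in TUDCA-Sham hearts, 10.72 to 10.89 in Veh-TAC hearts and 10.17 in each Veh-Sham heart. Like Eif4ebp1, Eif4e2, Eif4a1 and Eif1a, both lists were highest in all 3 Veh-TAC hearts. The cardiomyocyte markers averaged 13.61 to 14.07 in TUDCA-TAC hearts, 13.83 to 13.90 in TUDCA-Sham hearts, 13.56 to 13.64 in Veh-TAC hearts and 13.69 to 14.05 in Veh-Sham hearts, and 2 of 7 were lower in the vehicle response (median -0.25). Of the other lists in the vehicle response, 1 of 7 endothelial markers was higher (Egfl7, 0.75) with a median of -0.20, 0 of 6 smooth muscle and pericyte markers were called (median 0.01), 2 of 4 atrial markers were lower (Myl7 and Gja5, -0.91 and -0.70, median -0.45), 0 of 3 adipocyte markers were called (median -1.01) and 1 of 4 erythroid markers was lower (Alas2, -1.62, median -1.28). None of these lists had a call with TUDCA, where the medians were 0.01 (cardiomyocyte), 0.09 (endothelial), 0.32 (smooth muscle and pericyte), -0.36 (atrial), -1.09 (adipocyte) and -0.39 (erythroid). The atrial mean was 13.62 to 13.88 in TUDCA-TAC hearts, 14.04 to 14.18 in TUDCA-Sham hearts, 13.37 to 13.79 in Veh-TAC hearts and 13.90 to 14.07 in Veh-Sham hearts, so that banded and sham hearts did not overlap at either treatment. The endothelial mean was 10.61 to 11.06 in TUDCA-TAC hearts, 10.73 to 10.82 in TUDCA-Sham hearts, 10.63 to 11.07 in Veh-TAC hearts and 10.72 to 10.98 in Veh-Sham hearts. That of the smooth muscle and pericyte markers was 9.85 to 10.02 in TUDCA-TAC hearts, 9.44 to 9.77 in TUDCA-Sham hearts, 9.57 to 9.77 in Veh-TAC hearts and 9.65 to 9.86 in Veh-Sham hearts. The adipocyte mean was 6.94 to 8.16 in TUDCA-TAC hearts, 7.79 to 9.61 in TUDCA-Sham hearts, 6.68 to 7.03 in Veh-TAC hearts and 7.32 to 8.34 in Veh-Sham hearts, and the erythroid mean was 9.48 to 10.96 in TUDCA-TAC hearts, 10.23 to 10.93 in TUDCA-Sham hearts, 8.95 to 10.61 in Veh-TAC hearts and 10.80 to 10.93 in Veh-Sham hearts. None of the 8 lymphocyte markers had a probe among those with 1 gene symbol. The part of the cell makeup in the differences of the translation factor genes was not tested.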

How the data were processed

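RNA of 13 hearts was measured on Illumina MouseRef-8 v2 arrays, 1 array a heart, and the authors extracted the data with GenomeStudio 2011.1 (Gene Expression Module 1.9.0). The authors deposited a raw intensity for each of 25697 probes, without background subtraction or normalization. Beside it they deposited a detection p-value that sets the probe against the negative control beads of its array. A second deposited table, normalized by the authors, holds log2 values of 11732 probes. These values equal quantile-normalized log2 raw intensities over those probes (largest difference 4.99989e-07), and the values served only as an alternative. Each of those probes passed detection (p under 0.05) on 8 or more arrays.

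The raw intensities were corrected by normexp (offset 16), the control signal being inferred through detection p, quantile-normalized and put on a log2 scale with limma 3.58.1 in R 4.3.3. The 13557 probes detected on at least 3 arrays were kept, of which 11078 had 1 gene symbol. Those 11078 all lay in the authors' normalized table, so each probe used was detected on at least 8 arrays. Each of 8336 genes was read from its brightest probe by mean. Of the 44 members, 20 had several probes, and for 5 of these the probes differed in sign in the vehicle response. All 44 matched the RefSeq table of GRCm38.p6 by gene number. That table gave names, and gene positions used to leave out promoter runs that overlapped another gene. Probes can also bind near-identical paralogues and pseudogenes, which was not tested. The brightest member reached 68.6% of the brightest probe.

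With limma (lmFit, eBayes without trend) 1 mean per group was fitted over the 13 arrays, and p-values were adjusted over 8336 genes by Benjamini-Hochberg. The labels call the hearts of a group biological replicates. Differences are given with the standard error (SE) of the fit. Named with values for each heart were members called in any comparison, 12 anchor genes of the pathway where measured, and the member with the largest rise and fall in each comparison; of the other lists, up to 2 called genes in each direction. Eif3a and Eef1b2 were added after their values were seen. The members, lists and rules were chosen with earlier results of these data known. Replicate numbers are those of the sample descriptions, which differ from the numbers in the titles, and neither numbering was used for pairing. Alternatives covered the starting table, background correction, scaling, filter, probe choice, model, test and single hearts. The dose comes from the study's methods. Promoter windows were scanned with Python 3.11.15.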

Additional observations from a re-analysis of the deposited data

Results flagged for a closer look

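Eef1g, a subunit gene of the eEF1B exchange complex, had 1 heart apart from its group. TUDCA-TAC replicate 3 measured 15.01 (15.0126) where the other 3 TUDCA-TAC hearts lay between 15.0938 and 15.0999, so that the gap was 0.931 of the group's range, above Dixon's 95% limit for 4 values. Chance flags about 1 in 20 such groups, and the 0.08 that parted this heart from the rest is small on the log2 scale. The rule was run on the TUDCA-TAC group of all 44 members and flagged no other, so this flag is no more than chance would give. For Eif3b the test of the difference of responses to TAC, with TUDCA minus with vehicle, gave 0.718 (adjusted p = 0.0447, limma). It was the only member called there (2.27%), near the 2.14% of all genes, and the call was lost in most fits that left out 1 heart. The values by heart and the hearts on which the call depended are given with the eIF3 genes.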

How the results depend on the processing

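Of 411 values of the members' counts and medians under alternatives, 345 stayed near the main value, and of 1005 values for single genes 807 kept their direction and their side of the threshold. The 4 members higher in Veh-TAC than in Veh-Sham hearts became 2 by the methods' t-test at 1.5-fold and an unadjusted p. The 2 lower became 4 with the authors' normalized table, with the mean of a gene's probes and with a trended robust fit, 5 without background correction and without TUDCA-TAC replicates 3 and 4 together, 6 with array quality weights, 1 with only the groups compared and with the methods' t-test after Benjamini-Hochberg, and 0 with median scaling and with the methods' t-test at 1.5-fold. The 3 higher in TUDCA-TAC than in Veh-TAC hearts became 9 with quality weights, 1 with median scaling and the t-test at 1.5-fold, and 0 with the array background as a term and the t-test after Benjamini-Hochberg. The 4 lower there became 2 with median scaling and the t-test at 1.5-fold, and 0 with the groups compared only, the replicate block, the background term, the t-test after Benjamini-Hochberg and without TUDCA-TAC replicates 3 and 4. The 1 higher in the difference of responses became 2 with quality weights and 0 with median scaling, the replicate block, the background term and without those hearts. Median scaling took the members' median to 0.0119 in Veh-TAC against Veh-Sham, 0.11 in TUDCA-TAC against TUDCA-Sham and 0.0628 in TUDCA-Sham against Veh-Sham. The median of all genes under that scaling was 0.123, 0.120 and 0.0532 in the same order, so all genes shifted with the members. Quality weights took the members' median to 0.11 in TUDCA-TAC against Veh-TAC. Without 1 heart at a time, counts ran from 3 to 4 and 0 to 6 (higher and lower, Veh-TAC against Veh-Sham), 1 to 3 and 0 to 4 (TUDCA-TAC against Veh-TAC) and 0 to 1 (higher, difference of responses), and medians from -0.120 to -0.0376, 0.0724 to 0.116, and 0.06 to 0.09 in those comparisons, -0.01 to 0.03 in TUDCA-TAC against TUDCA-Sham and -0.02 to 0.03 in TUDCA-Sham against Veh-Sham. Reversed signs were those of Eef2k in Veh-TAC against Veh-Sham under median scaling (0.0161) and of Eif3k without Veh-Sham replicate 3 (-0.0181, the range without 1 heart being -0.0181 to 0.0862). The cause of these changes was not tested. The replicate block used the numbers of the sample descriptions, which name hearts only. The deviations of hearts sharing one correlated between -0.38 and 0.44 in 18 pairs, 8 of them over 0.1. A replicate block on the title numbers, added after the data were seen, left 3 residual degrees of freedom, 7 numbers covering 13 hearts and 3 hearts sharing theirs with no other. The deviations of hearts sharing a title number correlated between -0.39 and 0.38 in 8 pairs, 3 of them over 0.1. Deviations from the means of such small groups cannot show whether a numbering pairs the hearts. With that block 0 members and at most 0.324% of all genes were called in any comparison, the members' medians were -0.0538 in Veh-TAC against Veh-Sham, 0.0281 in TUDCA-TAC against Veh-TAC and 0.0190 for the difference of responses, and Eif3k gave -0.0523 in Veh-TAC against Veh-Sham. Leaving out the detection filter altered no value, since every probe with a symbol had passed it, and is not counted among the alternatives. The slide could not be used as a block, since the file headers name none. The array background was 7.36 in TUDCA-TAC replicate 4 and 8.02 to 8.30 in all other hearts, so the term rests largely on that heart. It also differed with the groups, so that term and the groups cannot be fully told apart.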
